A study of Mus musculus with 8 samples.

Results

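Pax3, Tfap2a, Tfap2b, Foxd3, Lef1 and Irf4, transcription factor genes of the neural crest and the melanocyte lineage, were followed through the chromatin accessibility of 4 mouse melanoma cell lines. A region of the deposited count table belonged to a gene if it lay inside the gene in GRCm38, or within 50 kb of it with that gene as the nearest protein-coding gene end. Of the 148664 regions of the table, 85 met this rule: 36 at Pax3, 10 at Tfap2a, 9 at Tfap2b, 6 at Foxd3, 18 at Lef1 and 6 at Irf4. Inside the genes lay 53 of them, and 32 lay outside. The rule used positions only, so the counts were no part of assigning regions to genes. The genes themselves were chosen with earlier results of these data known. ATAC-seq, which uses the Tn5 transposase to cut and tag open DNA, was run on 8 libraries of 50000 cells each. Lines 112 and 113 were labelled Stat3 knockout and lines 119 and 73 wild type, each with 2 replicate libraries. The mice behind them are named Stat3fl, an allele flanked by recombination sites, for the wild type and Stat3∆, the recombined allele, for the knockout. The cells came from lymph nodes of mice whose skin melanoma arose at 25 to 30 weeks, and each line is described both as a pool of cells and as a clone. The recombinase and the alleles that drove the tumours are not given in the sources used here. The titles carry a number after the letter p whose meaning is not stated, namely 18 (line 112), 44 (line 113), 14 (line 119) and 68 (line 73). Nothing states that replicates came from separate cultures, so p-values between lines measure only the spread between these libraries.

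Melanocytes arise from the neural crest, a population of migrating cells at the dorsal edge of the embryonic neural tube. PAX3, a paired-box factor, marks these cells early and activates Mitf, the gene of the central melanocyte factor. TFAP2A and TFAP2B are AP-2 factors that act in the neural crest, and TFAP2A acts beside MITF at pigment cell genes. FOXD3, a forkhead factor, keeps neural crest cells uncommitted and represses the melanocyte fate. LEF1 is a DNA-binding partner of beta-catenin in Wnt signalling. IRF4, best known from lymphocytes, activates tyrosinase together with MITF in pigment cells.

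The start windows of Foxd3, Lef1 and Irf4 are printed because each overlaps a region at the start of its gene that is described further on. Each is the 250 bases before an annotated start, from the RefSeq promoter table of GRCm38.p6, read 5′ to 3′ on the plus strand. The Foxd3 window lies at chr4:99656049-99656298, the Lef1 window at chr3:131110047-131110296 and the Irf4 window at chr13:30748983-30749232. The table gave 9 windows for 5 of the 6 genes, and none was matched for Pax3. Capitals mark a match to a motif searched, other than the plain E-box.
Foxd3: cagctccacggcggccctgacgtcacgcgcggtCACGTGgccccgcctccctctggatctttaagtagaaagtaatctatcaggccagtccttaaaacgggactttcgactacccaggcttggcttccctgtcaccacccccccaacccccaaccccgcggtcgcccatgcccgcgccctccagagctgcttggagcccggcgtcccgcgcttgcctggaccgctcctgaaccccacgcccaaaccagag
Lef1: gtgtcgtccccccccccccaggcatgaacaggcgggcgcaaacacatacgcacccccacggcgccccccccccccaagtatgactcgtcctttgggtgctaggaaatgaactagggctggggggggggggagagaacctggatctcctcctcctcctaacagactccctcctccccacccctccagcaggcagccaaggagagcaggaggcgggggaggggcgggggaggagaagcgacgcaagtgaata
Irf4: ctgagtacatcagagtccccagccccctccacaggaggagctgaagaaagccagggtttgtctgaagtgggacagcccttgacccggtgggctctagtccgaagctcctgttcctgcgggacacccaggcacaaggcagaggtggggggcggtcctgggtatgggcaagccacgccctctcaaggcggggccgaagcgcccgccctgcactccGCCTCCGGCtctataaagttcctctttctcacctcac
Motifs were searched on both strands, from 250 bases before to 50 after each start. They were the E-box CANNTG, which is in 72.3% of the 32851 windows of the table, and its special forms CATGTG (14.2%) and CACGTG (7.15%). The others were the STAT pattern TTCNNNGAA (8.3%), the C/EBP pattern TTGCNNNAA (9.56%), the AP-2 pattern GCCNNNGGC (16.6%), CTTTGAT (3.73%) and CTTTGTT (5.85%) of LEF/TCF and SOX factors, the AP-1 pattern TGANTCA (7.81%) and an IRF pattern of paired GAAA (3.44%). The Foxd3 window held CACGTG 217 bases before the start, and the Irf4 window held GCCTCCGGC, an AP-2 match, 37 bases before it. The printed Lef1 window held a plain E-box only, and the STAT pattern was in none of the 9 windows. These are matches of letters and do not show that a factor was bound.

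The 8 libraries held 2697546 to 7464336 counts over the region table. Levels are given as CPM, the count scaled to library size by edgeR, for the 2 libraries of a line in turn. The 12 regions of Stat3, the deleted gene, had counts in every library, and its start region stood at 28.8, 38.6, 18.3 and 33.2 CPM in lines 112, 113, 119 and 73, which does not check the deletion. Start regions of 7 of 7 melanocyte markers summed to 137, 237, 75.6 and 120.1 CPM in the same order. Mitf and Pmel were open in every library, at no less than 17.2 and 31.5 CPM. In the wild-type libraries the Dct, Tyr and Tyrp1 starts were at no more than 4.24, 1.1 and 3.58 CPM, and the Mlana start was at 0 to 0.848. In the knockout libraries the starts of Dct, Tyr, Tyrp1 and Mlana were at no less than 21.2, 6.96, 5.06 and 9.08 CPM. Over all its regions Dct summed to 118, 218, 79.1 and 31.7 CPM in lines 112, 113, 119 and 73. Tyr summed to 88.7, 104, 70.4 and 6.69 in the same order, Tyrp1 to 55.5, 102, 58.1 and 20.4. Mlana summed to 43.8, 38.0, 9.68 and 8.73. By these sums line 119 lay near line 112 at Tyrp1, and line 73 was far below line 119 at Tyr. The Sox10 start stood at 2.53 and 3.58 CPM in line 73 and at no less than 16.1 elsewhere. Of the fibroblast markers, 4 of 4 had a start region, and these summed to 43.7, 44.7, 41.1 and 116 CPM, but they did not move together. In line 73 Pdgfrb stood at 46.4 and 49 CPM, Col1a2 at 33 and 30.8 and Col1a1 at 38.3 and 32.5, each above every other library. The Pdgfra start stood at 0.76 and 1.65 in line 73 and 1.81 and 1.87 in line 119, against 8.54 to 19.6 in the knockout libraries. Summed over all its regions, Pdgfra stood at 126, 72.3, 59.4 and 119 CPM in lines 112, 113, 119 and 73. In bulk libraries fewer cells with an open region and a less open region in every cell cannot be told apart, here and in all that follows.

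With the line as the unit of replication, 2 lines against 2, 0 of the 85 regions passed the test between the genotypes (edgeR quasi-likelihood test, smallest adjusted p 0.143), and 0% of all 140329 regions did. At an unadjusted p under 0.05 stood 22 of the 85, against 16.9% of all regions. DESeq2 on the same line sums called 10 of the 85 (11.8%), of which 8 were at Pax3, against 4.98% of all regions. With libraries as units, which ignores that each genotype has 2 lines, 21 of the 59 regions then tested were called (35.6%), against 26% of all regions. In simulated data for 30000 regions the line test found 43.5% of regions given a 16-fold change and 0% of regions given a 4-fold change.

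Pairs of lines were compared with the spread between libraries as the error, which compares those lines and not the genotypes. Of the 85 regions, 76 had enough counts to be tested. Counts are given as higher or lower in the first-named line. Lines 112 and 119 differed in 42 (25 higher and 17 lower, against 23.4% and 25.3% of all regions, 48.6% in all). Lines 112 and 73 differed in 46 (38 higher and 8 lower, against 25.4% and 27% of all regions, 52.4% in all). Lines 113 and 119 differed in 55 (36 higher and 19 lower, against 31% and 30.1% of all regions, 61.2% in all), and lines 113 and 73 in 49 (44 higher and 5 lower, against 27.1% and 27.4% of all regions, 54.5% in all). The knockout lines differed from each other in 19 (2 higher and 17 lower, against 8.95% and 16.5% of all regions, 25.5% in all), and the wild-type lines in 36 (31 higher and 5 lower, against 29.6% and 30.7% of all regions, 60.2% in all). In the pairs of lines 112, 113 and 119 with line 73, most calls were higher in the line other than 73. The balance depended on the scaling. Scaled on regions at gene ends, the pair of 112 and 119 gave 19 higher and 20 lower, 112 and 73 gave 49 higher and 3 lower, 113 and 119 gave 23 higher and 27 lower, 112 and 113 gave 10 higher and 7 lower, and 119 and 73 gave 45 higher and 1 lower. With an offset for the level of the surrounding 10 Mb, 112 and 119 gave 14 higher and 22 lower, and with plain totals 112 and 113 gave 7 higher and 9 lower. Gene-end scaling itself moved the median of all regions by -0.20, 0.44, -0.65, -0.01, 0.45 and 0.64 (log2) in the 6 pairs, in the order of their first counts above, and the offset moved it by -0.24 for 112 over 119.

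**Figure D1:**
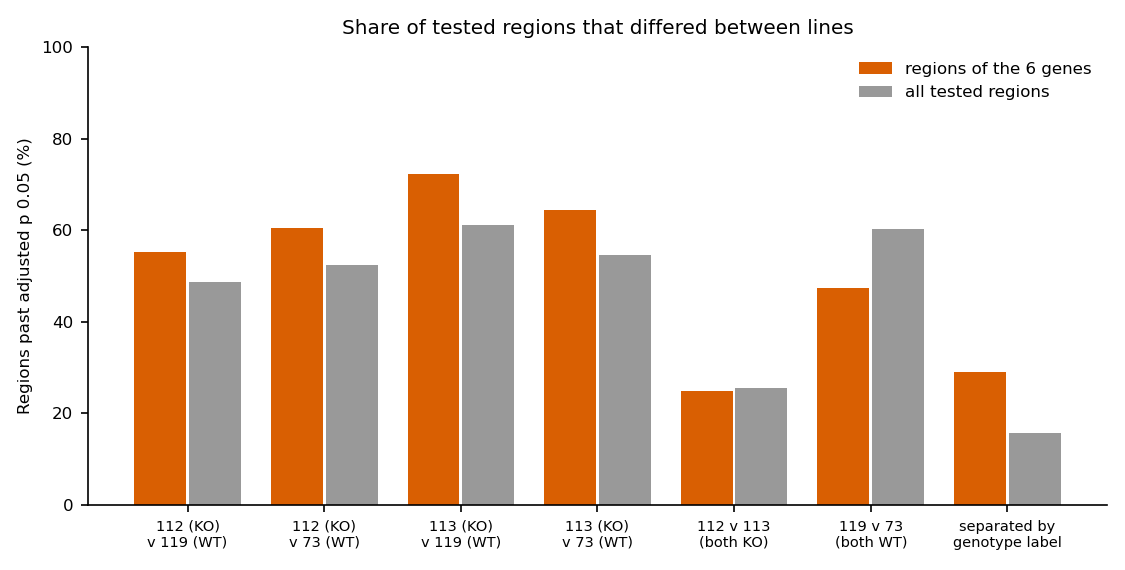
Share of tested regions past an adjusted p of 0.05 in each pair of lines, and of regions separated by the genotype label (percent, y axis), for the 76 tested regions of the 6 genes and for all 134068 tested regions. The share separated was 28.9% for the 6 genes and 15.8% for all regions.

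Regions are called separated here where each of the 4 comparisons across the genotype labels was past the threshold with the same sign. Separated and higher in the knockout lines were 20 of the 76 regions (8.22% of all tested regions), and separated and lower were 2 (7.55%). The 20 were 17 of Pax3, 2 of Tfap2a and 1 of Foxd3, and the 2 were 1 of Pax3 and 1 of Lef1. With the 10 Mb offset the higher count was 12, against 6.07% of all regions, and with DESeq2 it was 13, against 4.3%. Line 113 had the highest mean in 39 of the 85 regions (26.6% of the table) and line 73 the lowest in 48 (31.6%).

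Counts summed over all regions gave 1 level per gene. Pax3 had line 112 at 310.2 and 292 CPM, line 113 at 366 and 357, line 119 at 222 and 206 and line 73 at 85.9 and 87.8. Both knockout lines stood above both wild-type lines with no overlap. Tfap2a had line 112 at 124 and 129 CPM, line 113 at 148 and 134, line 119 at 114 and 116 and line 73 at 47.9 and 39.2, so that line 73 stood apart from the rest. Foxd3 had line 112 at 80.3 and 76.6 CPM, line 113 at 56.3 and 60.9, line 119 at 100.1 and 103 and line 73 at 10.5 and 14.6, again with line 73 far below. Tfap2b had line 112 at 24 and 41.9 CPM, line 113 at 15.8 and 13.4, line 119 at 69.3 and 68 and line 73 at 11.4 and 9.42, with line 119 above all others. Lef1 had line 112 at 92.2 and 115 CPM, line 113 at 153 and 135, line 119 at 149 and 136 and line 73 at 132 and 132, the narrowest range of the 6 genes. Irf4 had line 112 at 25.1 and 28 CPM, line 113 at 18.2 and 12.3, line 119 at 23.7 and 27.3 and line 73 at 10.7 and 10.9, with line 73 lowest. Per kb of region, line means ran from 3.74 to 15.6 CPM at Pax3, 5.57 to 18 at Tfap2a, 1.88 to 12.4 at Tfap2b, 2.46 to 19.8 at Foxd3, 8.12 to 11.3 at Lef1 and 2.84 to 6.97 at Irf4.

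Tested over all 17927 genes, 28 of the 36 combinations of a gene and a pair of lines passed the threshold, 6 each for Pax3 and Foxd3, 5 for Tfap2b, 4 each for Tfap2a and Irf4 and 3 for Lef1. Some of these calls were lost in other settings. Foxd3 112 over 113 (log2 0.43) fell to 0.07 when scaled like the region table, which put the median of all genes at -0.34. Irf4 113 over 119 (-0.73) moved to -0.31 with that scaling (median 0.43). Foxd3 112 over 119 (-0.36) was lost with plain totals (-0.26, median 0.10). Of the 6 genes, line 112 against 119 had 1 higher and 3 lower (background 22.9% and 25.7%, 48.6% in all). Against line 73, line 112 had 5 higher and 1 lower (background 27.2% and 24.1%, 51.3% in all) and line 113 had 3 higher and 0 lower (background 25.6% and 25.9%, 51.5% in all). Line 113 against 119 had 2 higher and 3 lower (background 27% and 30.2%, 57.2% in all), line 112 against 113 had 3 higher and 2 lower (background 22.9% and 16.7%, 39.6% in all), and line 119 against 73 had 5 higher and 0 lower (background 30% and 26.7%, 56.7% in all). With the line as the unit, 0 of the 6 genes passed in edgeR (0% of genes), and 1, Pax3, stood at an unadjusted p under 0.05 (9.43% of genes). Its log2 difference was 1.13 ± 0.45 (adjusted p 0.497).

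**Figure D2:**
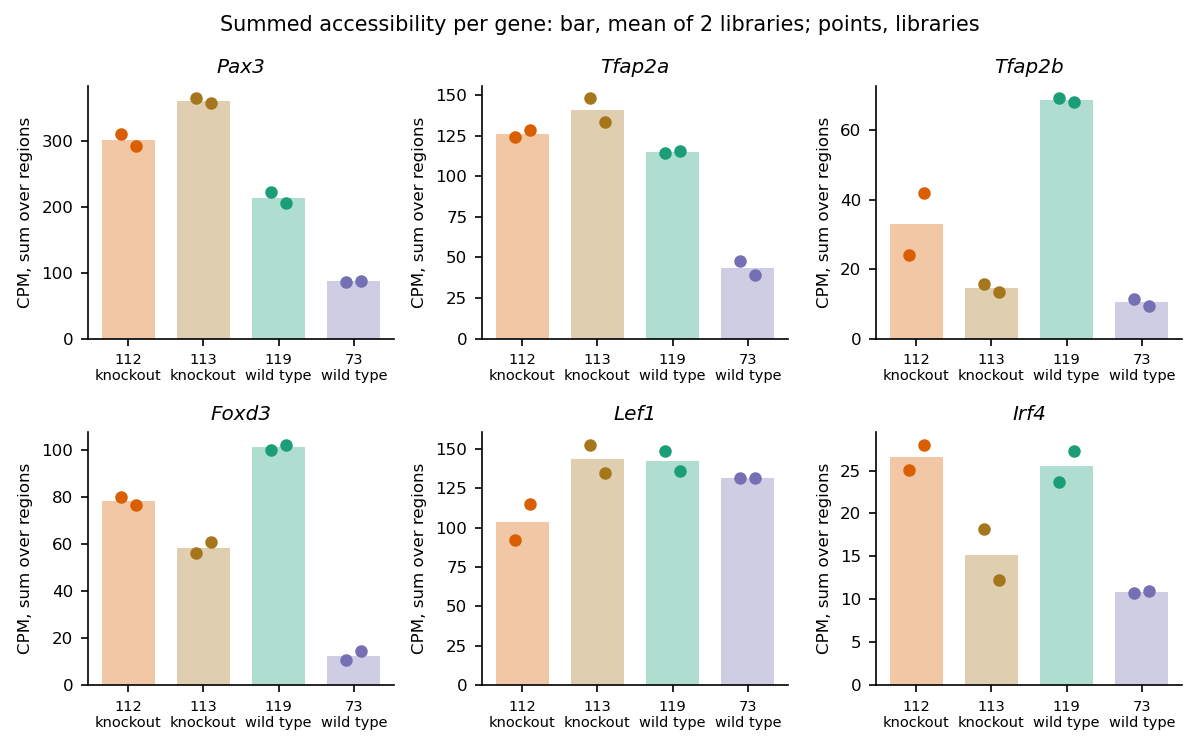
Summed accessibility of each gene (CPM over all its regions, y axis from 0) in the 4 lines, with points for the 2 libraries and their mean. Line 73 is lowest for every gene except Lef1, line 119 is highest for Tfap2b and Foxd3, and the knockout lines are highest for Pax3 (301 and 361 CPM).

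Pax3 (chr1:78101267-78197136) carried most of the regions that divided the lines as the labels do. Of its 34 tested regions, 17 were separated and higher in the knockout lines (8.22% of all tested regions), and 15 of the 17 lay inside the gene. Their line means ran from 2.64 to 14.3 CPM in line 112 and from 4.54 to 21.6 in line 113. In line 119 they ran from 0.598 to 3.98 and in line 73 from 0.518 to 2.62 CPM. Over all 34 tested regions the median log2 differences were 1.14, 1.97, 1.76 and 2.50 for 112 over 119, 112 over 73, 113 over 119 and 113 over 73, against 0.04, 0.04, 0.09 and -0.01 over all regions. In 21 of the 36 regions all knockout libraries lay above all wild-type libraries, as did 14% of the table.

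Region 3 (chr1:78068977-78070179), 31088 bp beyond the lower-coordinate end of the Pax3 gene, had line 112 at 16.5 and 12 CPM, line 113 at 25.6 and 17.7, line 119 at 0.778 and 2.03 and line 73 at 1.27 and 1.93. Every knockout library was several times above every wild-type one. The log2 differences ran from 3.17 ± 0.41 (line 112 over 73, edgeR adjusted p 7.54e-09) to 4.00 ± 0.35 (line 113 over 119, adjusted p 8.27e-14). Region 27 (chr1:78167698-78168258), inside the gene, had line 112 at 5.2 and 7.91 CPM, line 113 at 25.4 and 13.5, line 119 at 1.17 and 0.678 and line 73 at 1.27 and 1.65. Here line 113 was also above line 112 (112 over 113 -1.60 ± 0.30, edgeR adjusted p 7.33e-05), and no libraries of the genotypes overlapped. Region 21 (chr1:78155433-78155984) had line 112 at 10.4 and 5.69 CPM, line 113 at 11.8 and 9.33, line 119 at 1.56 and 0.678 and line 73 at 1.01 and 1.1. Region 23 (chr1:78157323-78157859) had line 112 at 4.49 and 5.06 CPM, line 113 at 6.92 and 8.84, line 119 at 0.518 and 0.678 and line 73 at 1.27 and 0.55. Both showed the same division as region 3 at a lower level. With the line as the unit, edgeR's adjusted p was 0.143, 0.146, 0.150 and 0.154 for regions 3, 27, 21 and 23, and DESeq2, which called them, gave 0.00184, 0.00902, 0.0138 and 0.0261.

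The strongest Pax3 regions followed another order. Region 35 (chr1:78196807-78197793) overlaps the higher-coordinate end of the gene, where transcription of Pax3 starts. It had line 112 at 42.7 and 30.4 CPM, line 113 at 54.9 and 54, line 119 at 32.9 and 29 and line 73 at 5.83 and 6.6. Region 34 (chr1:78189372-78190070), 7066 bp inside the gene, had line 112 at 41.1 and 33.2 CPM, line 113 at 56.3 and 58.2, line 119 at 32.8 and 35.1 and line 73 at 5.32 and 4.13. At both regions line 119 lay near line 112, and line 73 stood alone below. Line 119 over 73 differed by 2.32 ± 0.24 at region 35 and 2.83 ± 0.24 at region 34 (log2, edgeR adjusted p 9.34e-12 and 4.76e-14). Line 112 over 119 differed by 0.25 ± 0.18 and 0.14 ± 0.17 (adjusted p 0.252 and 0.522). With plain totals this difference at region 35 was 0.36, past the threshold (edgeR adjusted p 0.0393, median of all regions 0.15). Without library 2 of line 112 it was 0.41. Line 113 over 119 differed by 0.81 ± 0.17 and 0.75 ± 0.17 (adjusted p 7.00e-05 and 1.18e-04), but by 0.16 and 0.10, below the threshold, with gene-end scaling, which put the median of all regions at -0.56 for this pair. Above the median of all regions they stood by 0.72 and 0.67 without that scaling and by 0.72 and 0.67 with it. These calls were also lost without library 2 of line 119 at region 35 (0.60) and without its library 1 at region 34 (0.60). Among regions with a mean count of at least 50, the differences were 0.26 and 0.21, below the threshold (median 0.06). Region 36 (chr1:78203621-78204289), 6485 bp beyond the start and chosen after its values were seen, went the other way. It had line 112 at 1.89 and 6.64 CPM, line 113 at 3.69 and 2.7, line 119 at 8.94 and 8.31 and line 73 at 8.87 and 9.91, and a peak was called in the 4 wild-type libraries. It was no longer separated without library 1 of line 112, with DESeq2 or with gene-end scaling.

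The weaker regions in the 10 Mb around Pax3 stood at a log2 ratio to the mean of the lines of 0.30, -0.09, -0.30 and -0.19 in lines 112, 113, 119 and 73. With an offset for this, 10 Pax3 regions were separated and higher (6.07% of all tested regions). The Pax3 sum of line 112 over 119 was 0.49 ± 0.10 (edgeR adjusted p 1.59e-04) and with the offset -0.10 (adjusted p 0.625). The offset also put the median of all genes at -0.28 for this pair, so that Pax3 stood 0.18 above the median with it and 0.50 above it without. The other knockout to wild-type differences of the sum, 1.80 ± 0.11, 0.76 ± 0.10 and 2.06 ± 0.10 for 112 over 73, 113 over 119 and 113 over 73, kept their sign and call with it.

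**Figure D3:**
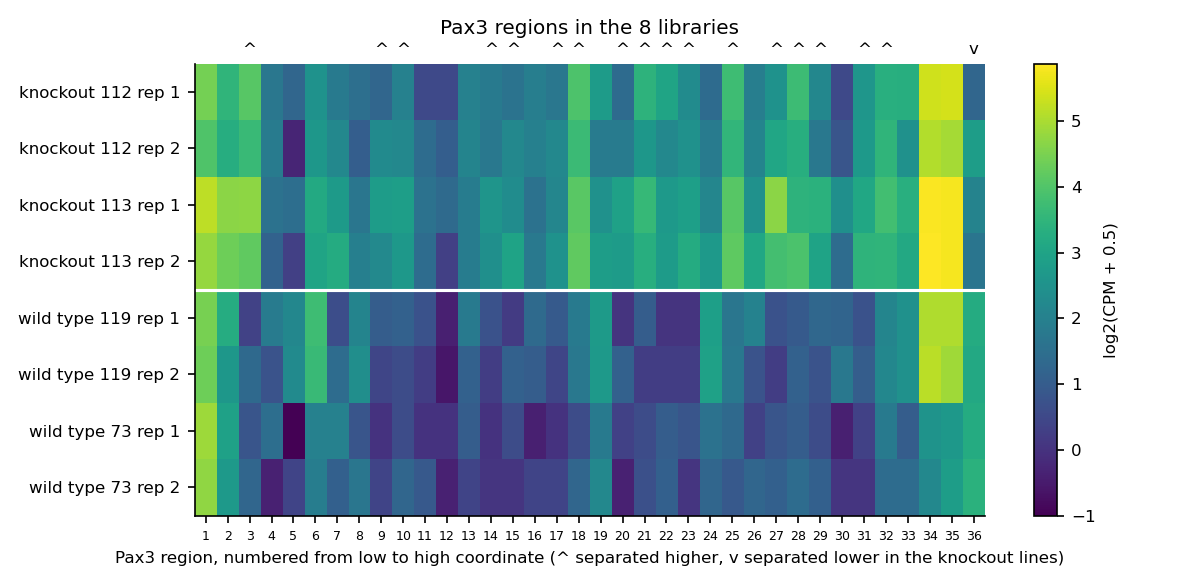
Accessibility of the 36 Pax3 regions, numbered from low to high coordinate, in the 8 libraries, as log2(CPM + 0.5) by colour, with the separated regions marked. Regions 34 and 35 are high in lines 112, 113 and 119 and low in line 73, and regions 3, 21, 23 and 27 are high in the knockout lines only.

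At Tfap2a (chr13:40713802-40738238), 2 of 9 tested regions were separated and higher in the knockout lines, against 8.22% of all tested regions. Region 7 (chr13:40730588-40731925), the strongest, lies inside the gene and had line 112 at 42.7 and 45.2 CPM, line 113 at 65.5 and 53.3, line 119 at 27.2 and 27.1 and line 73 at 9.89 and 10.2. No knockout library overlapped a wild-type one, and lines 119 and 73 also differed (1.44 ± 0.21, edgeR adjusted p 1.21e-07). Line 112 over 119 differed by 0.69 ± 0.17 (adjusted p 9.06e-04), which was lost with the 10 Mb offset (0.40, with the median of all regions at -0.20) and without library 1 or 2 of line 119 (0.59 and 0.56). Region 9 (chr13:40749093-40750132), 10855 bp upstream of the gene, had line 112 at 19.4 and 12.3 CPM, line 113 at 24.2 and 17.4, line 119 at 5.06 and 4.75 and line 73 at 4.06 and 3.58. Here the wild-type lines lay together below the knockout lines, by log2 differences from 1.71 ± 0.29 (112 over 119, edgeR adjusted p 2.41e-06) to 2.44 ± 0.32 (113 over 73, adjusted p 4.07e-09). With gene-end scaling line 119 over 73 differed by 1.00 (edgeR adjusted p 0.0142), with the median of all regions at 0.55.

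Other Tfap2a regions did not divide the lines by label. Region 2 (chr13:40694339-40694998), 18804 bp downstream of the gene, had line 112 at 5.2 and 2.85 CPM, line 113 at 20.7 and 15.5, line 119 at 11.5 and 10.9 and line 73 at 1.77 and 1.38, so that 1 line of each genotype was high. Line 119 over 73 differed by 2.80 ± 0.39 and line 112 over 113 by -2.12 ± 0.32 (edgeR adjusted p 3.11e-08 and 1.43e-06). Region 8 (chr13:40733616-40734233), at one of the annotated starts, had line 112 at 4.96 and 6.64 CPM, line 113 at 4.38 and 5.4, line 119 at 8.94 and 9.84 and line 73 at 4.56 and 4.4, a low level in every line with line 119 on top. The Tfap2a sum of lines 112, 113 and 119 over line 73 was 1.53 ± 0.13, 1.69 ± 0.13 and 1.40 ± 0.13 (adjusted p 2.86e-10, 1.28e-11 and 5.56e-10). Line 113 over 119 was 0.29 ± 0.11 (adjusted p 0.0266), which was lost in DESeq2 and without library 1 of line 113 or library 1 or 2 of line 119 (0.24, 0.29 and 0.30).

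Tfap2b (chr1:19208908-19238845) was open mainly in wild-type line 119. Region 3 (chr1:19210113-19210998), 1205 bp inside the gene, had line 112 at 3.31 and 8.22 CPM, line 113 at 3.69 and 1.72, line 119 at 18.9 and 16.8 and line 73 at 2.53 and 0.825. The Tfap2b window of the promoter table, at chr1:19211804-19212103, overlapped no region. Region 2 (chr1:19208818-19209318), which overlaps the lower-coordinate end of the gene, had line 112 at 1.18 and 2.85 CPM, line 113 at 0.922 and 0.736, line 119 at 8.04 and 7.46 and line 73 at 1.01 and 1.93. In regions 3 and 2, each library of line 119 was above every other library. At region 3 the log2 difference was -1.70 ± 0.31 for 112 over 119, -2.70 ± 0.35 for 113 over 119 and 3.37 ± 0.39 for 119 over 73 (edgeR adjusted p 1.22e-05, 3.64e-09 and 2.60e-10). Of the 7 tested regions, 5 were lower in line 112 (25.3% of all regions) and 5 in line 113 (30.1%) than in line 119. Higher in line 119 than in line 73 were 6 (29.6% of all regions). The Tfap2b sum of line 112 lay between, -1.11 ± 0.17 over line 119 and 1.61 ± 0.23 over line 73 (adjusted p 6.94e-06 and 1.94e-06). Its 2 libraries, at 24 and 41.9 CPM, were themselves unequal. The weaker regions in the 10 Mb around the gene stood at a log2 ratio of 0.43 in line 112 and -0.38 in line 73.

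Foxd3 (chr4:99656299-99658671) is a short gene. Region 3 (chr4:99655882-99658355) covers its start, with the printed window, and most of its body. It had line 112 at 54.8 and 48.4 CPM, line 113 at 50 and 47.4, line 119 at 61.7 and 67.7 and line 73 at 6.34 and 9.36. The knockout libraries lay between those of the wild-type lines, and line 73 stood alone far below, with a peak called in the 6 libraries of the other lines. The log2 difference over line 73 was 2.73 ± 0.22 for line 112, 2.64 ± 0.22 for line 113 and 3.05 ± 0.21 for line 119 (edgeR adjusted p 1.00e-14, 5.36e-15 and 4.31e-17). The weaker regions in the 10 Mb around Foxd3 stood at -0.46 in line 73. In the same line the Sox10 start was low. Of the 4 fibroblast marker starts, Pdgfrb, Col1a2 and Col1a1 were high there, while Pdgfra was low in both wild-type lines. The part of these markers in the Foxd3 level was not tested.

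Region 1 of Foxd3 (chr4:99624682-99625308), 30991 bp upstream, was its 1 separated region. It had line 112 at 3.31 and 2.85 CPM, line 113 at 8.76 and 13, line 119 at 0.259 and 0.509 and line 73 at 0.76 and 0.275, from 14 and 9, 38 and 53, 2 and 3, 3 and 1 counts. Every knockout library was above every wild-type one, and a peak was called only in line 113. The log2 differences ran from 2.50 ± 0.67 (112 over 73, edgeR adjusted p 0.00168) to 4.78 ± 0.47 (113 over 119, adjusted p 2.91e-12). Line 112 over 113 was -1.80 ± 0.36 (adjusted p 1.77e-04). With the line as the unit the adjusted p was 0.143 in edgeR and 0.00823 in DESeq2. Region 5 (chr4:99660901-99661401), downstream of the gene, had line 112 at 6.38 and 7.59 CPM, line 113 at 3 and 2.95, line 119 at 9.2 and 6.61 and line 73 at 2.53 and 3.85, with lines 112 and 119 on top.

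**Figure D4:**
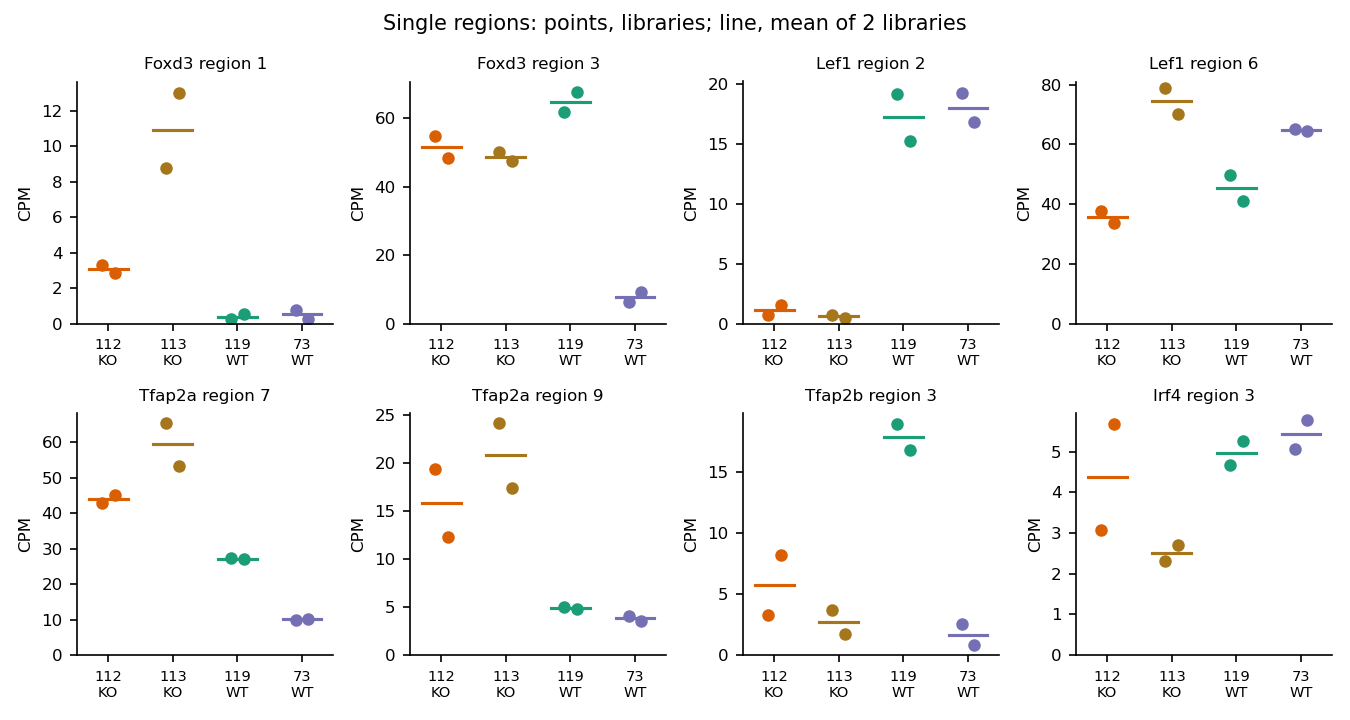
Accessibility in CPM (y axes from 0) of single regions in the 4 lines, with points for the libraries. Foxd3 region 1 and Lef1 region 2 divide the lines by genotype label in opposite directions, Foxd3 region 3 is low in line 73 only, and Tfap2b region 3 is high in line 119.

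Lef1 (chr3:131110297-131224357) was open near its start in every line. Region 6 (chr3:131110962-131112695), 665 bp inside the gene, had line 112 at 37.8 and 33.8 CPM, line 113 at 78.8 and 70.2, line 119 at 49.8 and 41.2 and line 73 at 65.1 and 64.4, and a peak in all 8 libraries. The genotypes overlapped, with line 113 on top and line 112 at the bottom (112 over 113 -1.05 ± 0.16, edgeR adjusted p 3.41e-06). Line 119 over 73 differed by -0.50 ± 0.16 (adjusted p 0.00458), but by 0.14 with gene-end scaling (adjusted p 0.358, median of all regions 0.55) and by -0.52 and -0.23, below the threshold, without library 1 or 2 of line 119. Region 5 (chr3:131110058-131110816), which holds most of the printed window and was chosen after its values were seen, had line 112 at 9.21 and 13.9 CPM, line 113 at 25.6 and 21.1, line 119 at 13.5 and 11.5 and line 73 at 21.3 and 20.4.

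Region 2 of Lef1 (chr3:131085164-131085718), 24579 bp upstream, had the widest range of line means of all 85 regions. It had line 112 at 0.708 and 1.58 CPM, line 113 at 0.692 and 0.491, line 119 at 19.2 and 15.3 and line 73 at 19.3 and 16.8, from 3 and 5, 3 and 2, 148 and 90, 76 and 61 counts. The wild-type libraries all carried a peak and the knockout libraries none. The log2 differences ran from -3.96 ± 0.40 (112 over 119, edgeR adjusted p 2.38e-11) to -4.86 ± 0.45 (113 over 73, adjusted p 1.89e-13). Lines 119 and 73 differed by -0.06 ± 0.24 (adjusted p 0.843), or by 0.59 with gene-end scaling (adjusted p 0.0232), which put the median of all regions at 0.55. With the line as the unit the difference was -4.44 ± 0.96 in edgeR (adjusted p 0.143) and -4.50 in DESeq2, which called it (adjusted p 2.39e-04). In edgeR, without library 1 of line 112 its adjusted p was 0.0463, when 0.453% of all regions passed. Close by, region 1 (chr3:131083662-131084212), chosen after its values were seen, was high in line 73 only, at 11.2 and 9.63 CPM.

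The sum over Lef1 moved less. Line 112 over 119 was -0.47 ± 0.12 and 112 over 113 was -0.48 ± 0.12 (edgeR adjusted p 0.00212 and 0.00275). The first was lost without library 1 of line 112 (-0.31) and the second without library 1 of line 113 (-0.41). Line 119 over 73 was 0.11 ± 0.11 (adjusted p 0.417), or -0.30 with the scaling of the region table (adjusted p 0.0390). That scaling put the median of all genes at -0.43, and Lef1 stood 0.13 above the median without it and 0.13 above it with it.

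Irf4 (chr13:30749233-30766981) had 6 regions, all weak. Region 3 (chr13:30748902-30749729), at the start and over the printed window, had line 112 at 3.07 and 5.69 CPM, line 113 at 2.31 and 2.7, line 119 at 4.67 and 5.26 and line 73 at 5.07 and 5.78, with the genotypes overlapping. Line 113 over 119 and over 73 differed by -0.98 ± 0.38 and -1.11 ± 0.41 (edgeR adjusted p 0.0253 and 0.0198), both lost in DESeq2 and without library 1 of line 113 (adjusted p 0.146 and 0.104). Region 2 (chr13:30744388-30745155), 4078 bp upstream, had line 112 at 7.08 and 4.74 CPM, line 113 at 8.3 and 3.93, line 119 at 4.8 and 3.22 and line 73 at 2.03 and 1.38. Region 5 (chr13:30767091-30767646), 110 bp past the gene, had line 112 at 4.49 and 3.8 CPM, line 113 at 4.38 and 3.44, line 119 at 2.46 and 4.41 and line 73 at 1.01 and 0.825. At both, line 73 had the lowest libraries. At region 2 line 112 over 73 differed by 1.80 ± 0.47 (edgeR adjusted p 0.00121), while the call of line 119 over 73 (1.24 ± 0.47) was lost in DESeq2 and without library 1 of line 119 or library 1 or 2 of line 73, and that of line 113 over 73 (1.83 ± 0.46) without library 1 of line 113. At region 5 lines 112, 113 and 119 over 73 differed by 2.15 ± 0.56, 2.05 ± 0.56 and 1.83 ± 0.54 (edgeR adjusted p 0.00123, 0.00148 and 0.00333). Irf4 is also a gene of lymphocytes, and the lines came from lymph nodes. Of 7 lymphocyte markers, 4 had a start region, while Ptprc, Cd79a and Cd79b had none, and the 4 summed to 38.6, 47.4, 28.4 and 17.9 CPM in lines 112, 113, 119 and 73. Most of it was Cd2, at 3.3 to 43.3 CPM over the libraries. Their part in the Irf4 level was not tested.

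**Figure D5:**
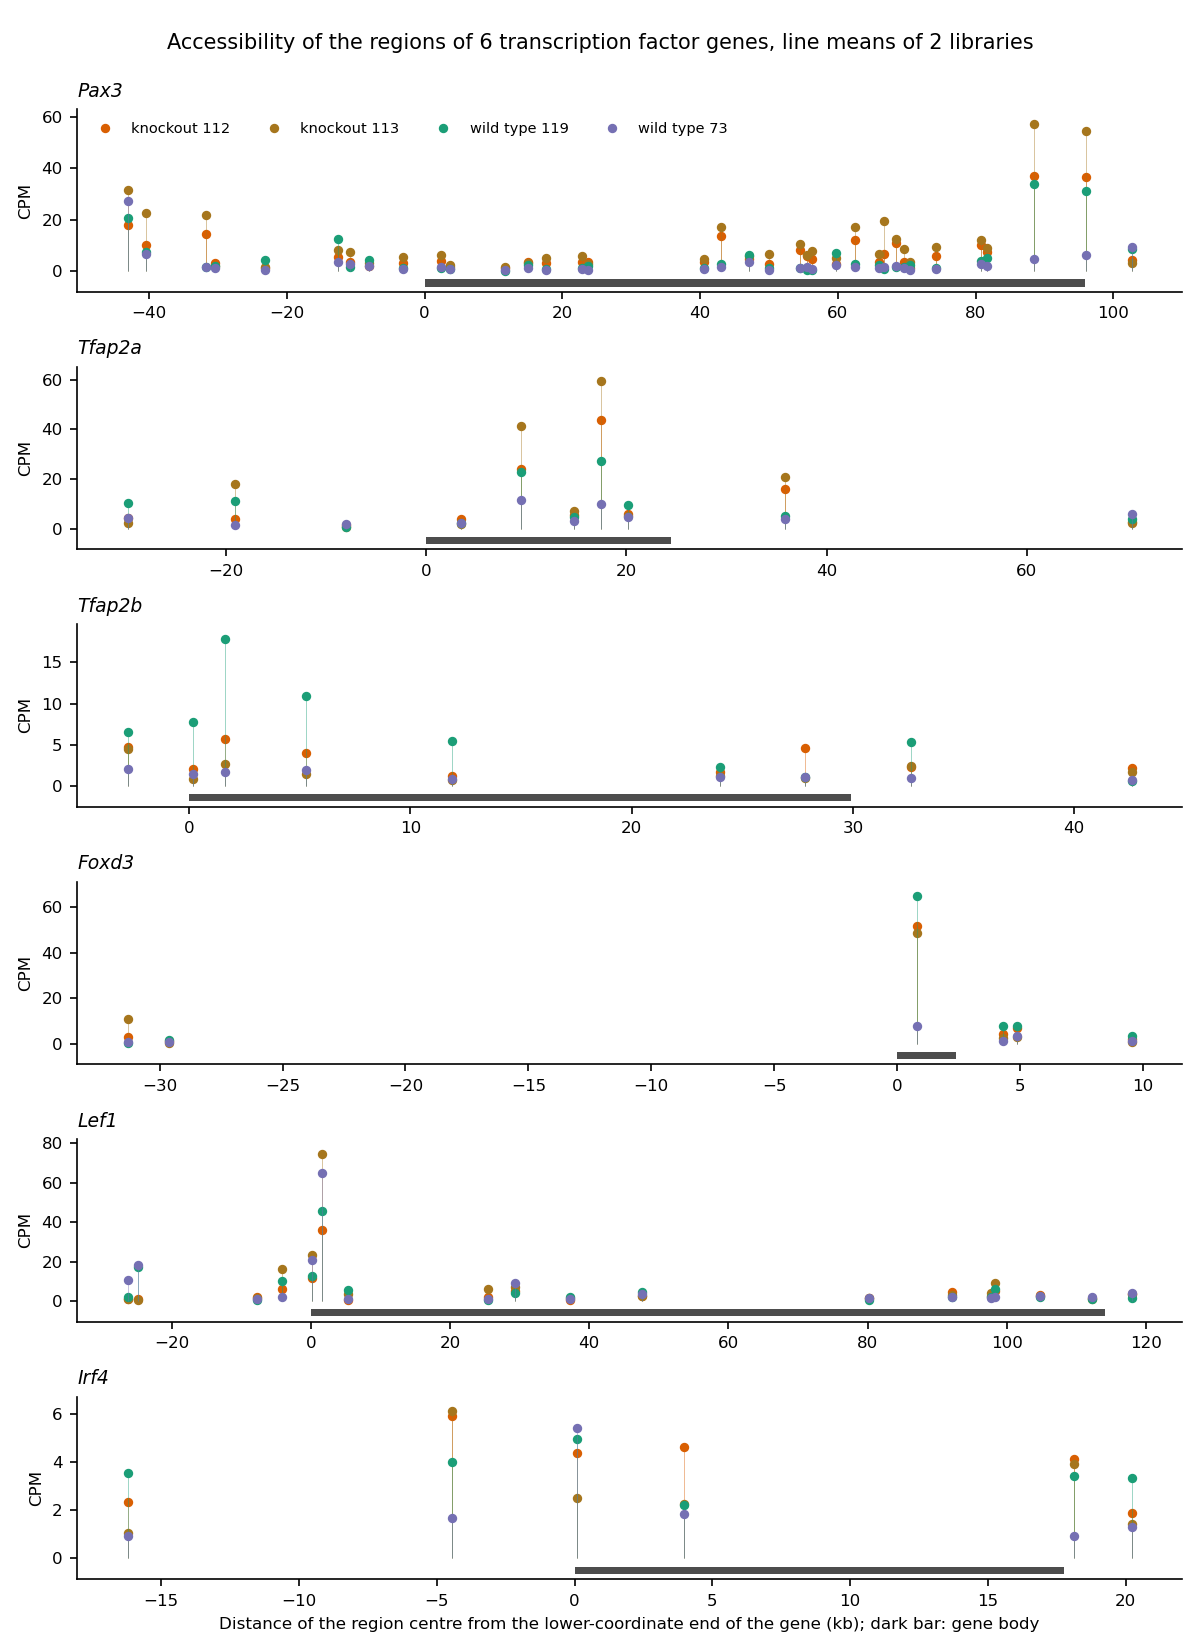
Line mean accessibility (CPM, y axes from 0) of every region of the 6 genes along each locus, by line. The highest values are at regions 34 and 35 of Pax3, region 7 of Tfap2a, region 3 of Foxd3 and region 6 of Lef1.

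The range of the 4 line means had a median over regions of 2.18 (log2) at Pax3, 1.52 at Tfap2a, 2.11 at Tfap2b, 2.08 at Foxd3, 1.23 at Lef1 and 1.34 at Irf4. Over all 85 regions it was 1.94, against 1.74 over the whole table, and 39 regions had a range of at least 2, against 40.5% of the table. A peak called by the authors in at least 1 library overlapped 70 of the 85 regions, against 87.8% of the table. Region 1 of Pax3, region 5 of Tfap2a and region 6 of Lef1 had one in all 8. Peaks lay at 11 to 33 of the regions in the knockout libraries, at 44 and 41 in line 119, and at 12 and 14 in line 73. The full lists of called peaks also differed in length, with 20387 to 52250 in the knockout libraries. They held 94906 and 85498 in line 119, and 56497 and 56096 in line 73.

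Other genes of the same pathways were summed over their regions in the same way. Of 16 other crest and melanocyte regulators, 3 were separated and higher in the knockout lines (Foxd1, Mitf and Tfap2c) and 4 separated and lower (Sox9, Msx1, Msx2 and Twist1), against 4.87% and 7.17% of all genes. Msx1, a homeobox gene of the neural plate border, stood at 9.94, 9.31, 30.4 and 48.3 CPM in lines 112, 113, 119 and 73, and Sox9, another crest factor, at 61.2, 48.4, 115 and 114. Sox10, which acts with PAX3 on Mitf, stood at 167, 144, 132 and 24.9 CPM, low in line 73 like Foxd3. Of 11 other LEF/TCF and IRF genes, 1 was separated and higher, Irf8, at 81.2, 46.7, 29.1 and 30.2 CPM, and 0 were lower. Of 10 genes known as targets of these factors or of Wnt signalling, 7 were separated and higher (Mitf, Tyr, Dct, Kit, Mlana, Axin2 and Nkd1) and 0 lower. Mitf stood at 411, 390.0, 224 and 203 CPM and Axin2, a Wnt target, at 205, 190.1, 135 and 90.4 CPM. The median log2 differences of the targets were 0.59, 1.39, 0.80 and 2.18 for 112 over 119, 112 over 73, 113 over 119 and 113 over 73, against -0.00, 0.00, 0.01 and 0.01 over all genes. Pigment genes were already known to differ in these data when the list was made, so its direction is no independent evidence. With the line as the unit, the smallest adjusted p in the 3 lists was 0.174 in edgeR.

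For the 3 genes whose sums ranged over at least 2 on the log2 scale, the genes with the most similar pattern over the 8 libraries were sought among those of similar level and a range as wide. Nearest to Pax3 were Limch1, Etl4 and Igsf11 (Pearson correlation of log2 CPM 0.993, 0.990 and 0.990, of 66 genes compared). Nearest to Foxd3 were Ryr3, Fbln7 and Dnajc6 (0.998, 0.994 and 0.994, of 593), and nearest to Tfap2b were Ang4, Neurod6 and Lrfn2 (0.998, 0.979 and 0.975, of 825). The 8 points are 4 lines with 2 libraries each and share the region table and the scaling.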

How the data were processed

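ATAC-seq libraries of 4 mouse melanoma lines, 2 per line, were analysed. Per the submitters' processing notes the reads were handled with Bowtie2 2.2.4, Picard 1.118 and MACS2 2.1.1.20160309 on mm10. The deposited table holds raw counts per region and library, as the authors made it; what was counted, reads or cut sites, is not given in the sources used here. The deposited peak lists hold, per the file headers, a score, a fold enrichment, and −log10 p and q values per peak as the authors' peak caller gave them; only peak positions were used.

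Regions were assigned to genes with the RefSeq table of GRCm38.p6. Counts were scaled by TMM and tested with edgeR 4.0.16 (quasi-likelihood, R 4.3.3) over the whole table after filterByExpr (minimum count 10, minimum total 15), with Benjamini-Hochberg adjustment over all regions or genes and a threshold of 0.05. The genotype test summed the libraries of a line and compared 2 lines with 2. Pairs of lines were contrasts of 1 fit to the 8 libraries. DESeq2 1.42.0, other scalings, filters, an offset for the weaker regions of the surrounding 10 Mb, and each library left out were tried. The regions described one by one were chosen by a written rule. Per gene these were the start region, the region with most counts away from the gene ends and the one with the widest range of line means. Where no region met an annotated start window, the region with most counts within 1 kb of a gene end stood for the start region. The separated ones were added, or where these were more than 4 the 4 with the largest genotype difference. The tests were checked on simulated data. The members and lists were chosen with earlier results of these data known. Columns of other samples numbered 0. Total counts per library, 2697546 to 7464336, limit the precision at weak regions.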

Additional observations from a re-analysis of the deposited data

How the results depend on the processing

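Of 3021 values of 182 named results under alternative settings, 2847 kept direction and call, 109 lost the call, 61 gained one and 4 reversed. The genotype test with lines as units called 0 regions; DESeq2 called 10, libraries as units 21 of 59 tested, and leaving out 1 library gave 0 to 1, the 1 without library 1 of line 112. Libraries as units called 1 gene sum. Where no share of all regions stands beside a count below, a change at these genes cannot be told from one over the table. Requiring a mean count of at least 50 left few regions to test and gave 3 calls for lines 112 and 119, 7 for 112 and 73, 3 for 113 and 119, 6 for 113 and 73, 2 for 112 and 113 and 5 for 119 and 73, with 1 region separated higher and 0 lower. DESeq2 gave 23 for 112 and 119 and 10 for 112 and 113. It left 13 separated higher and 1 lower, against 4.3% and 4.78% of all regions. The 10 Mb offset gave 31 for 112 and 113 and 12 separated higher, against 6.07% of all regions. Gene-end scaling and the restriction to 10 kb each left 1 separated lower, against 7.57% of all regions with gene-end scaling. Leaving out 1 library gave 29 to 43 calls for 112 and 119, 36 to 47 for 112 and 73, 39 to 56 for 113 and 119, 42 to 51 for 113 and 73, 10 to 22 for 112 and 113 (10 without library 1 of line 113), 28 to 38 for 119 and 73, 14 to 19 separated higher and 1 to 2 lower (1 without library 1 of line 112).

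Reversed were line 119 over 73 at Lef1 region 2 (0.59) and region 6 (0.14) with gene-end scaling, the Pax3 sum of 112 over 119 with the 10 Mb offset (-0.10), and the Lef1 sum of 119 over 73 with the scaling of the region table (-0.30). The medians of all regions or genes moved the same way in these settings, to 0.55, -0.28 and -0.43, and relative to them the sign of each of the 4 values was as without the setting. Gene-end and region-table scaling were chosen after seeing the data. The replicate numbers did not pair the libraries (correlations of deviations -0.037 to 0.005), and a replicate block in the genotype test with libraries as units gave 19 called of 59 tested regions (32.2%, against 21.6% of all regions). Weak regions are limited by depth.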
